A study of Mus musculus with 18 samples.

Results

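The Notch pathway genes described here are 10 members, namely the receptors Notch1 and Notch2, the ligands Dll1, Dll4 and Jag1, and the targets or regulators Hes1, Hes5, Hes6, Hey1 and Nrarp. They were chosen by name, as every probe set whose single gene symbol in the array annotation was one of these. This gave 18 of the 45037 probe sets that are not Affymetrix controls, and 10 of the 18193 genes that the array names with a probe set of their own. For each gene the probe set with the highest mean over all arrays leads, and 7 of the members have further probe sets. A group mean above a log2 value of 7, the minimum used in the study's methods, was reached in at least 1 group by 16 of the 18 probe sets, and each of the 10 genes has at least 1 such probe set.

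RNA from isolated mouse retinas was hybridised to Affymetrix mouse genome arrays, 18 in all, in order to find what changes when polo-like kinase 3 is missing. Plk3-KO mice carry a deletion of the 5′ part of Plk3 in every cell, and WT mice were their littermates. Both came from crosses to C57Bl/6 that bred out the Rd1 allele of Pde6b, a retinal degeneration allele of the Black Swiss background. At each of 3 ages, postnatal day 0 (P0), P7 and adult, there were 3 Plk3-KO and 3 WT arrays. The labels do not say whether an array holds retinas of 1 animal or how genotypes were matched within litters, so p-values measure only the spread between these arrays. The 1 probe set of Plk3 lies 3′ of the deleted part and checks nothing about the deletion. Precision is limited by having 3 arrays a group.

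Notch receptors are cut when a Delta or Jagged ligand on a neighbouring cell binds them, and the freed intracellular part joins the DNA-binding protein RBPJ to switch on target genes. In the developing retina this signal keeps progenitor cells dividing and undifferentiated, through Hes1 and Hes5, which repress neurogenic genes, and it later favours Müller glia. Newborn neurons carry Delta ligands, and Hes6 is a relative of the Hes repressors that opposes Hes1 and is found in cells that leave the cycle. Nrarp is itself a Notch target and limits the signal by acting on the intracellular part.

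Promoter sequence was looked up for the members, since several of them moved together between ages. RefSeq promoter windows of build GRCm38.p6, from 250 bases before to 50 bases after each listed start, were found for 8 of the 10 members by symbol, with 10 windows in all, and none was at hand for Hes1 and Hey1. A listed start need not be the annotated start of the gene. The whole Hes5 window lies inside the annotated gene, which begins at chr4:154960626. Each window was searched on both strands for the letters GTGGGAA, the core that RBPJ prefers, and for the N box CACNAG, a site bound by Hes repressors. Shown first are Hes5, Notch1 and Nrarp, which fell together, and then Jag1, which went the other way. Capitals mark the matches. The windows are chr4:154960673-154960972 on the plus strand for Hes5, chr2:26503773-26504072 on the minus strand for Notch1, chr2:25180508-25180807 on the plus strand for Nrarp and chr2:137116471-137116770 on the minus strand for Jag1.
Hes5: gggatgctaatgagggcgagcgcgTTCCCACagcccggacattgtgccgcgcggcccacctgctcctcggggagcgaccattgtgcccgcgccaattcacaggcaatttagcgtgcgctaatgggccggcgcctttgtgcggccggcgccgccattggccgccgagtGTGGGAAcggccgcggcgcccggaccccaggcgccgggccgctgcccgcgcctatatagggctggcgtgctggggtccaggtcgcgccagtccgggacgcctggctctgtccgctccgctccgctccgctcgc
Notch1: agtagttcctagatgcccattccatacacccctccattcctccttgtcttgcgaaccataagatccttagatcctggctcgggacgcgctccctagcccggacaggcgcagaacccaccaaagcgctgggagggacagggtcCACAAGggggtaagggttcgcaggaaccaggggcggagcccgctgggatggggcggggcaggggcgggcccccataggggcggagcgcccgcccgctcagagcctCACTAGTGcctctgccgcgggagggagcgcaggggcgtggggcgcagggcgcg
Nrarp: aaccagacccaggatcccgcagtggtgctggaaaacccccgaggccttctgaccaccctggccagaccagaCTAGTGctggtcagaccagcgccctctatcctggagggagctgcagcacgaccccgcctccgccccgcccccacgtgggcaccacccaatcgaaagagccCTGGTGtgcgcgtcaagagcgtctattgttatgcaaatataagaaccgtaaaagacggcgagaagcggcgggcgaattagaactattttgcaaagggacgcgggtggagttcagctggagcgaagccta
Jag1: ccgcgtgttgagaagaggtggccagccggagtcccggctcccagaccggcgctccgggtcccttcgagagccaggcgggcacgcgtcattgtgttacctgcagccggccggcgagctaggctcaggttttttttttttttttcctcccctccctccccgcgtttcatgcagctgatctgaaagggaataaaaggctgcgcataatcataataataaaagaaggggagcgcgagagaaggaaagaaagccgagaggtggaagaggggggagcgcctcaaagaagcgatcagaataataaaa
Of the members with a window, 1 held GTGGGAA on either strand. That was Hes5, with a plus-strand match starting 83 bases before the listed start and a minus-strand match, read as TTCCCAC, starting 226 bases before it. Over the whole table, 6.38% of 32851 windows of this length held these letters. The N box was held by 6 of the members with a window, namely Notch1, Notch2, Dll1, Dll4, Hes6 and Nrarp. Dll1 and Hes6 each had a further window without it, in Hes6 the one at the annotated gene start. Among all windows 42.5% held it, a share counted by window and not by gene, so it cannot be set directly against the 6. In Notch1 the pair of matches beside the start overlap and lie on opposite strands. The Jag1 window held neither motif. A match is a description of letters, not of binding.

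Levels are log2 MAS5 signals as deposited by the authors, so a difference of 1 is a 2-fold difference. The limma fit gave each age and genotype its own mean over the 18 arrays, and a difference was called where its p, adjusted by the Benjamini-Hochberg method over all probe sets tested in that comparison, lay under 0.05. Between P0 and P7 most members fell in both genotypes. In Plk3-KO retinas 7 of the 10 members fell and 1 rose, where over all probe sets tested 10.5% were called lower and 10.6% higher at P7. In WT retinas 6 of the 10 fell and none rose, where 9.6% of all probe sets were called lower and 10.8% higher. The median difference over the members was −2.03 in Plk3-KO and −1.87 in WT, against −0.10 over all probe sets in each genotype.

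**Figure D1:**
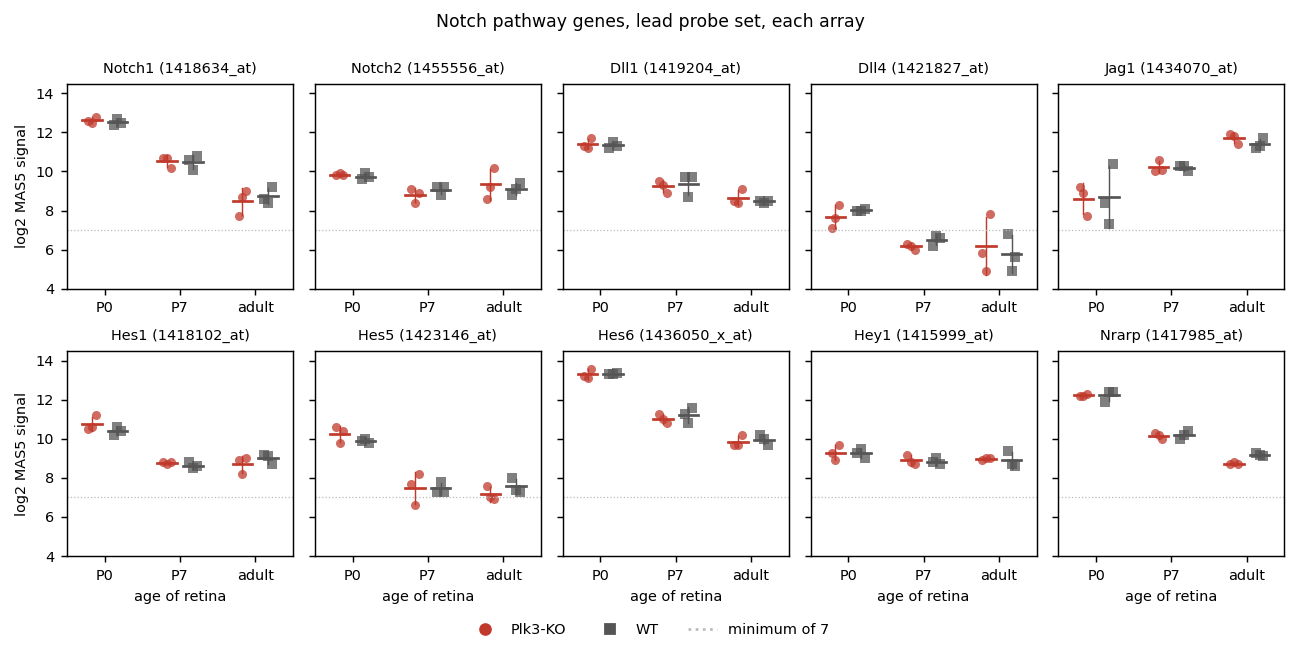
Log2 MAS5 signal (vertical axis) of the lead probe set of each member on every array at P0, P7 and in the adult (horizontal axis), with Plk3-KO as red circles left of WT as grey squares. Horizontal lines are means and vertical bars are SD of 3 arrays, and the dotted line is the minimum of 7. Notch1, Hes6 and Nrarp were called lower at both steps in both genotypes, Jag1 was called higher in the adult than at P0, and Hey1 lies between 8.6 and 9.7 on all arrays.

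From P7 to the adult fewer members moved. In Plk3-KO retinas 3 of the 9 members tested fell and none rose, where 10% of all probe sets were called lower and 9.16% higher in the adult. In WT retinas 4 of the 9 fell and none rose, where 9.75% were called lower and 9.95% higher. Notch1, Hes6 and Nrarp fell in both genotypes, and Dll1 was the additional member in WT. Adult and P0 retinas were also set side by side, a comparison added after the values were seen. In Plk3-KO retinas 6 of the 10 members were lower in the adult and 1 higher, beside 25.2% of all probe sets called lower and 20.1% called higher. In WT retinas 7 were lower and 1 higher, beside 26.9% and 21.3% of all probe sets.

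**Figure D2:**
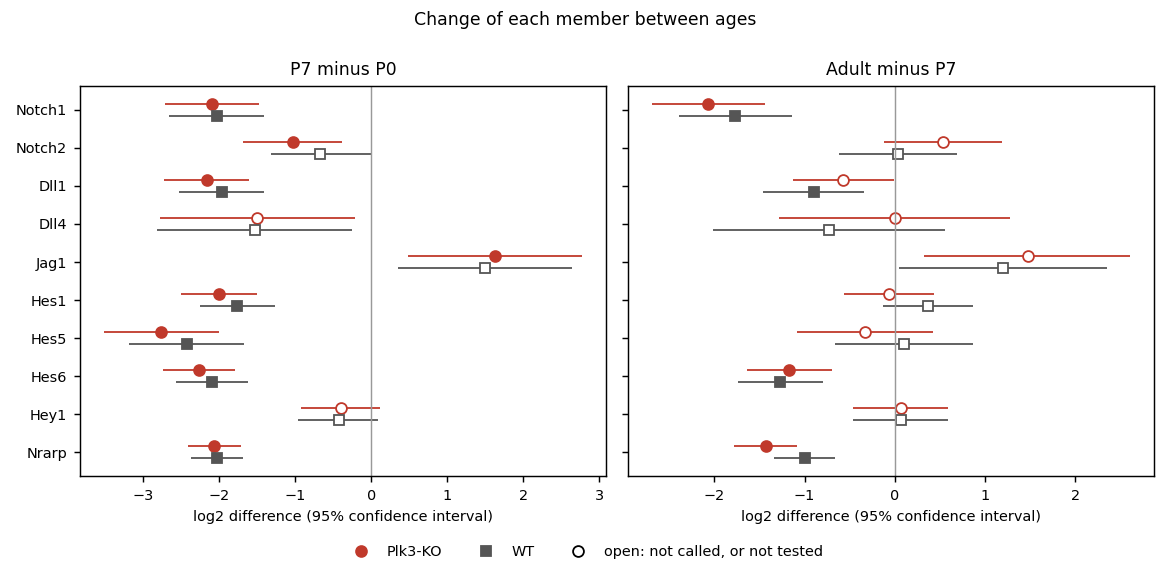
Log2 difference of each member (lead probe set) between ages, P7 minus P0 on the left and adult minus P7 on the right, with Plk3-KO in red above WT in grey. Bars are 95% confidence intervals of the limma fit, filled symbols were called and open symbols were not called or, for Dll4 on the right, not tested. Notch1, Hes6 and Nrarp are filled and below 0 in both panels.

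The 3′ to 5′ signal ratio of a control transcript, a measure that grows as RNA is less complete, was highest in the adult. The signal of the β-actin probe sets at the 3′ end of the mRNA exceeded that at the 5′ end by 1 to 1.3 log2 units at P0, by 0.8 to 1.6 at P7 and by 1.6 to 2.7 in the adult. Whether the ages were hybridised together is not given in the labels, so age and processing cannot be told apart. Adult Plk3-KO array 3 stood apart, with a median correlation of 0.887 across genes with the other adult arrays. So did P7 WT array 3 (0.946), P7 Plk3-KO array 2 (0.951) and adult WT array 3 (0.936), each the lowest of its group. Adult WT array 1, at 0.945, was kept. The 2 P7 arrays were alike across genotypes, with a median signal of 6.4 against 6.8 to 6.9 on other P7 arrays. Their β-actin difference was 1.6 against 0.8 to 1.1, and whether they shared a litter or batch is not given. Calls on lead probe sets that changed without the 4 arrays that stood apart are given with and without them. Without them 8 members were lower and 1 higher in the adult than at P0 in each genotype, where 61.5% of all probe sets were called in Plk3-KO and 65.6% in WT retinas. The 8 genes of the retinal progenitor and cell cycle list, such as Mki67 and Top2a, averaged 12.76 to 12.89 on Plk3-KO arrays and 12.65 to 12.82 on WT arrays at P0. At P7 the list averaged 8.66 to 9.62 on Plk3-KO arrays and 8.89 to 9.94 on WT arrays, and in the adult 6.04 to 6.91 on Plk3-KO arrays and 5.54 to 6.54 on WT arrays. All 8 fell from P0 to P7 in both genotypes, and adult Mki67 stood at 2.70 in Plk3-KO and 1.23 in WT retinas, which is near the lower end of the scale. In whole retinas, fewer cells of a type and less RNA per cell cannot be told apart, and the part of the progenitor change in the fall of the members was not tested. The Müller glia list averaged 12.28 to 12.44 on adult Plk3-KO arrays and 12.35 to 12.72 on adult WT arrays, against 10.36 to 10.76 on P0 Plk3-KO arrays and 10.47 to 10.74 on P0 WT arrays. Of its 10 genes, 7 were called higher and 2 lower in the adult than at P0 in Plk3-KO retinas. In WT retinas 7 were called higher and 1 lower. The rod list, which includes Sag and Nrl, reached 15.54 to 16.46 on adult Plk3-KO arrays and 15.14 to 15.96 on adult WT arrays, so that markers of the labelled tissue were present.

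Notch1, the receptor of retinal progenitors, had the steepest fall of the receptors. At P0 its lead probe set 1418634_at read 12.6, 12.5 and 12.8 on Plk3-KO arrays, and 12.4, 12.7 and 12.5 on WT arrays. At P7 it read 10.7, 10.7 and 10.2 on Plk3-KO arrays, and 10.6, 10.1 and 10.8 on WT arrays. In the adult it read 7.7, 8.7 and 9.0 on Plk3-KO arrays, and 8.6, 8.4 and 9.2 on WT arrays. No array of one age overlapped with an array of another, while the genotypes overlapped at every age. Notch1 fell by 2.10 from P0 to P7 in Plk3-KO retinas (4.29-fold, SE 0.295, limma adjusted p = 8.75e-05) and by 2.03 in WT retinas (4.09-fold, adjusted p = 0.000126). It fell again by 2.07 from P7 to the adult in Plk3-KO retinas (adjusted p = 0.00019) and by 1.77 in WT retinas (adjusted p = 0.000725). The further probe set 1418633_at showed the first step, with −2.53 in Plk3-KO and −2.63 in WT retinas, but its second step was not called, at −0.80 in Plk3-KO (adjusted p = 0.173) and −1.03 in WT retinas (adjusted p = 0.0773).

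Notch2, a receptor of the same family, had a smaller first step and no called second step. Its lead probe set 1455556_at read 9.8, 9.9 and 9.8 on P0 Plk3-KO arrays, and 9.6, 9.9 and 9.7 on P0 WT arrays. The P7 values were 9.1, 8.4 and 8.9 on Plk3-KO arrays, and 9.2, 8.8 and 9.2 on WT arrays. Adult values were 8.6, 9.2 and 10.2 on Plk3-KO arrays, and 8.8, 9.1 and 9.4 on WT arrays. The P7 arrays lay below the P0 arrays in both genotypes, and the adult arrays overlapped with P7 in both. From P0 to P7 the difference was −1.03 in Plk3-KO retinas (95% confidence interval −1.69 to −0.38, limma adjusted p = 0.0251) and −0.67 in WT retinas (−1.32 to −0.01, adjusted p = 0.145). The call in Plk3-KO retinas was lost without any 1 of P0 Plk3-KO arrays 1, 2 and 3 (adjusted p = 0.0601, 0.0733 and 0.0626) or of P7 Plk3-KO arrays 2 and 3 (adjusted p = 0.111 and 0.0507), and the difference between the genotypes in this step, −0.37, was not called (−1.29 to 0.56, adjusted p = 1). Without P7 WT array 3 and the other 3 arrays that stood apart, Notch2 was called lower in WT as well (−0.73, adjusted p = 0.0151). Adult minus P0 was −0.50 in Plk3-KO retinas (adjusted p = 0.198) and −0.63 in WT retinas (adjusted p = 0.1), and without the same 4 arrays both were called, at −0.93 in Plk3-KO (adjusted p = 0.00151) and −0.78 in WT (adjusted p = 0.00436). Leaving out adult Plk3-KO array 3 alone gave a call in Plk3-KO retinas as well (−0.93, adjusted p = 0.00692). Adult minus P7 in Plk3-KO retinas, 0.53 with an adjusted p of 0.247, was called without adult Plk3-KO array 1 (0.90, adjusted p = 0.0479). Its other probe set 1451889_at lay at or below 6.3 on all arrays, under the minimum of 7, and was not tested. There adult minus P0 was −0.43 in Plk3-KO and 0.80 in WT retinas.

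Among the ligands, Dll1, a Delta ligand of newborn neurons, fell with Notch1. At P0 probe set 1419204_at read 11.3, 11.2 and 11.7 on Plk3-KO arrays, and 11.2, 11.5 and 11.3 on WT arrays. On P7 arrays it gave 9.5, 9.3 and 8.9 on Plk3-KO arrays, and 9.7, 8.7 and 9.7 on WT arrays. In adult retinas the signal was 8.5, 8.4 and 9.1 on Plk3-KO arrays, and 8.5, 8.4 and 8.5 on WT arrays. P0 stood clear of both later ages, while P7 and adult Plk3-KO arrays overlapped. The fall from P0 to P7 was 2.17 in Plk3-KO retinas (4.49-fold, limma adjusted p = 2.15e-05) and 1.97 in WT retinas (3.91-fold, adjusted p = 6.29e-05). From P7 to the adult the difference was −0.57 in Plk3-KO retinas (adjusted p = 0.147) and −0.90 in WT retinas (adjusted p = 0.0257), and the WT call was lost without the 4 arrays that stood apart (−0.75, adjusted p = 0.0523). It was also lost without P7 WT array 1 or 3 (adjusted p = 0.106 and 0.0933) or adult WT array 1 or 2 (adjusted p = 0.068 and 0.0824).

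Dll4, the Delta ligand of progenitors that are about to form neurons and of growing vessels, had group means above 7 at P0 alone on its lead probe set. On P0 arrays, lead probe set 1421827_at read 7.1, 7.6 and 8.3 on Plk3-KO arrays, and 8.0, 8.0 and 8.1 on WT arrays. At P7 it read 6.3, 6.2 and 6.0 on Plk3-KO arrays, and 6.2, 6.7 and 6.6 on WT arrays. Adult arrays gave 5.8, 4.9 and 7.8 on Plk3-KO arrays, and 6.8, 4.9 and 5.6 on WT arrays. All arrays of P7 lay below those of P0, and adult Plk3-KO array 3 was the 1 array after P0 that lay above 7. The difference from P0 to P7 was −1.5 in Plk3-KO retinas (limma adjusted p = 0.0928) and −1.53 in WT retinas (adjusted p = 0.0861), neither called. The further probe set 1421826_at was called in both (−1.80 with adjusted p = 0.0227 in Plk3-KO, −1.63 with adjusted p = 0.0383 in WT), and without the 4 arrays that stood apart the lead probe set was called too (−1.52 with adjusted p = 0.0393 in Plk3-KO, −1.58 with adjusted p = 0.0316 in WT). Adult minus P0 on the lead probe set was −1.5 in Plk3-KO retinas (adjusted p = 0.0536) and −2.27 in WT retinas (adjusted p = 0.00629). The Plk3-KO difference was called without the 4 arrays (−2.32, adjusted p = 0.00162) and without adult Plk3-KO array 3 alone (−2.32, adjusted p = 0.00167). Adult values of 1421826_at were 3.2, 2.6 and 3.1 on Plk3-KO arrays and 3.1, 3.6 and 4.8 on WT arrays, far under the minimum. The vascular endothelium list of 8 genes moved the other way in this interval, at 8.01 to 8.88 on P7 Plk3-KO arrays and 7.64 to 8.71 on P7 WT arrays, against 6.08 to 6.50 on P0 Plk3-KO arrays and 5.54 to 6.72 on P0 WT arrays. Of its 6 genes tested, 4 rose and 1 fell in Plk3-KO retinas and 3 rose and 1 fell in WT retinas, and their part in the Dll4 values was not tested.

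Jag1, a Jagged ligand that is also expressed in the lens, was the member that went up. At P0 its lead probe set 1434070_at read 9.2, 8.9 and 7.7 on Plk3-KO arrays, and 8.4, 7.3 and 10.4 on WT arrays. The P7 values were 10, 10.6 and 10.1 on Plk3-KO arrays, and 10.3, 10.3 and 10 on WT arrays. By adulthood it stood at 11.9, 11.8 and 11.4 on Plk3-KO arrays, and 11.2, 11.3 and 11.7 on WT arrays. The P0 arrays spread far more than those of any later age, and P0 WT array 3 lay within the P7 range. Adult minus P0 was 3.10 in Plk3-KO retinas (8.57-fold, 95% confidence interval 1.95 to 4.25, limma adjusted p = 0.000232) and 2.70 in WT retinas (6.50-fold, 1.55 to 3.85, adjusted p = 0.000793). P7 minus P0 was 1.63 in Plk3-KO retinas (adjusted p = 0.0413) and 1.5 in WT retinas (adjusted p = 0.0614), and adult minus P7 was 1.47 in Plk3-KO retinas (adjusted p = 0.0684) and 1.20 in WT retinas (adjusted p = 0.127), with no overlap between P7 and adult arrays. The call from P0 to P7 in Plk3-KO retinas was lost without the 4 arrays that stood apart (1.45, adjusted p = 0.103), without P0 Plk3-KO array 2 or 3 (1.78 and 1.18, adjusted p = 0.0653 and 0.196) and without P7 Plk3-KO array 1, 2 or 3 (1.75, 1.45 and 1.70, adjusted p = 0.0662, 0.13 and 0.0784). Without P0 WT array 3 Jag1 was called higher at P7 in WT as well (2.35, adjusted p = 0.000815). Of the further probe sets, 1421106_at was called at neither single step, with P7 minus P0 at 0.80 in Plk3-KO retinas (adjusted p = 0.35) and 0.40 in WT retinas (adjusted p = 0.652), and it was higher in the adult than at P0 by 1.77 in Plk3-KO retinas (adjusted p = 0.0162) and by 1.53 in WT retinas (adjusted p = 0.0319), and 1421105_at stayed at or below 7 on all arrays. That last one was not tested, and its adult minus P0 values of −1.37 in Plk3-KO and −0.70 in WT retinas ran opposite to the lead.

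Lens RNA varied among the P0 arrays along with Jag1. The 6 lens genes, crystallins among them, averaged 10.92, 11.98 and 6.53 on P0 Plk3-KO arrays 1, 2 and 3, and 8.47, 3.13 and 13.62 on P0 WT arrays 1, 2 and 3. The lowest Jag1 value at P0, 7.3, was on the array with the lowest lens mean, and the highest, 10.4, on the array with the highest. The same 2 WT arrays bounded the further probe set 1421106_at, at 6.1 with P0 Plk3-KO array 3 also at 6.1, and at 7.7. In the adult the pattern did not recur, as the lens genes averaged 9.28, 5.77 and 10.18 on Plk3-KO arrays and 10.68, 12.03 and 8.92 on WT arrays, while Jag1 was highest at a lens mean of 9.28. Adult Jag1 read 11.8 at the lowest lens mean, 5.77, and 11.3 at the highest, 12.03, so it did not rise with the lens genes. At P7 the lens mean lay between 4.65 and 5.2 on Plk3-KO arrays and between 3.70 and 5.92 on WT arrays. With the lens mean as a covariate, a fit added after these values were seen that assumes 1 slope for all ages, P7 minus P0 was 2.68 in Plk3-KO retinas (limma adjusted p = 0.000643) and 2.34 in WT retinas (adjusted p = 0.00116). In that fit adult minus P7 was 0.71 in Plk3-KO retinas (adjusted p = 0.268) and −0.10 in WT retinas (adjusted p = 0.923). The adult arrays did not follow such a rising slope, so values of this fit that involve the adult carry that misfit. The share of the Jag1 increase that fell in each step differed between the fits, a difference that rests in part on this misfit. Adult minus P0 was called in both, here at 3.4 in Plk3-KO retinas (adjusted p = 3.77e-06) and 2.24 in WT retinas (adjusted p = 0.000249). Those 2 values carry the same misfit, so their calls are not separate support for the increase.

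Markers of the pigment epithelium, the layer behind the retina, were higher at later ages too. The list of 5 genes, of which Rlbp1 is also a Müller glia marker, averaged 7.24 to 8.48 at P0, 10.3 to 11.74 at P7 and 12.14 to 12.54 in the adult on Plk3-KO arrays. On WT arrays it averaged 7.6 to 7.92 at P0, 10.86 to 11.18 at P7 and 11.46 to 12.88 in the adult. Between P0 and the adult 4 of the 5 were called higher in Plk3-KO and 5 of 5 in WT retinas, and their part in the Jag1 increase was not tested.

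**Figure D3:**
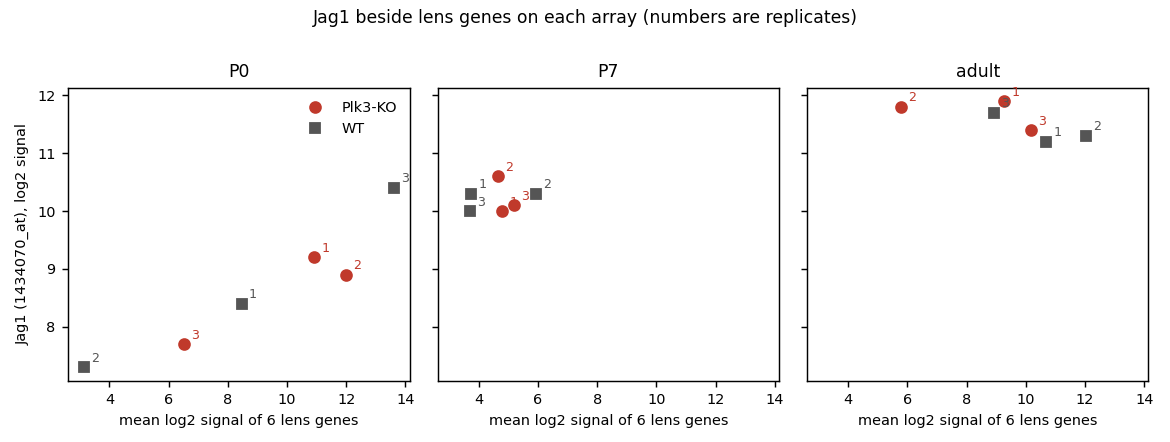
Log2 signal of the Jag1 lead probe set (vertical axis) against the mean log2 signal of 6 lens genes (horizontal axis) on each array, 1 panel per age, with Plk3-KO as red circles, WT as grey squares and the replicate number beside each. At P0 the arrays run from a Jag1 value of 7.3 at a lens mean of 3.13 to 10.4 at 13.62, while P7 arrays lie at low lens means and adult arrays show no such run.

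Among the targets, Hes1, a repressor that keeps progenitors undifferentiated, fell once. At P0 probe set 1418102_at read 10.5, 10.6 and 11.2 on Plk3-KO arrays, and 10.2, 10.6 and 10.4 on WT arrays. On P7 arrays it gave 8.8, 8.7 and 8.8 on Plk3-KO arrays, and 8.8, 8.5 and 8.6 on WT arrays. In the adult it read 8.9, 8.2 and 9.0 on Plk3-KO arrays, and 9.2, 9.1 and 8.7 on WT arrays. P0 stood clear of both later ages, which overlapped each other. The fall to P7 was 2 in Plk3-KO retinas (4-fold, limma adjusted p = 1.5e-05) and 1.77 in WT retinas (3.4-fold, adjusted p = 5.78e-05). Adult minus P7 was −0.07 in Plk3-KO retinas (95% confidence interval −0.56 to 0.43) and 0.37 in WT retinas (−0.13 to 0.86), so a change of over 0.86 in either direction lay outside both intervals.

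Hes5, the other Hes repressor of progenitors, had the largest first step. Its lead probe set 1423146_at read 10.6, 9.8 and 10.4 on P0 Plk3-KO arrays, and 9.9, 10 and 9.8 on P0 WT arrays. At P7 it read 7.7, 6.6 and 8.2 on Plk3-KO arrays, and 7.3, 7.8 and 7.3 on WT arrays. Adult values were 7.6, 7.0 and 6.9 on Plk3-KO arrays, and 8.0, 7.4 and 7.3 on WT arrays. Again P0 stood clear, and P7 and adult arrays overlapped around the minimum of 7. The fall to P7 was 2.77 in Plk3-KO retinas (6.81-fold, SE 0.358, limma adjusted p = 3.8e-05) and 2.43 in WT retinas (5.40-fold, adjusted p = 0.000145). Its other probe set 1456010_x_at, whose suffix marks probes that may also match other transcripts, fell by 4.07 in Plk3-KO and by 3.43 in WT retinas. In adult retinas the signal was 6.5, 5.9 and 2.8 on Plk3-KO arrays, and 7.3, 6.0 and 5.9 on WT arrays. Its adult minus P7 difference of −2.57 in Plk3-KO retinas was called (adjusted p = 0.0196), where the lead probe set gave −0.33 (adjusted p = 0.551), and the value of 2.8 belongs to adult Plk3-KO array 3, which stood apart.

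Hes6, the relative that opposes Hes1, stepped down at both intervals. Its lead probe set has the _x_at suffix too, so its probes may also match other transcripts. On P0 arrays, lead probe set 1436050_x_at read 13.2, 13.1 and 13.6 on Plk3-KO arrays, and 13.3, 13.3 and 13.4 on WT arrays. The P7 values were 11.3, 11 and 10.8 on Plk3-KO arrays, and 11.3, 10.8 and 11.6 on WT arrays. Adult arrays gave 9.7, 9.7 and 10.2 on Plk3-KO arrays, and 10.2, 10 and 9.7 on WT arrays. No array of one age overlapped with an array of another. Hes6 fell by 2.27 from P0 to P7 in Plk3-KO retinas (4.81-fold, limma adjusted p = 2.38e-06) and by 2.10 in WT retinas (4.29-fold, adjusted p = 6.34e-06). It fell by a further 1.17 in Plk3-KO retinas (adjusted p = 0.00184) and by 1.27 in WT retinas (adjusted p = 0.00105) on the way to the adult. The further probe set 1452021_a_at was called lower at all 4 of these steps too, by 1.37 to 2.33.

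Hey1, a Hes-related target best known from vessels, was called at no step. Its probe set 1415999_at read 9.3, 8.9 and 9.7 on P0 Plk3-KO arrays, and 9.3, 9.5 and 9.0 on P0 WT arrays. On P7 arrays it gave 9.2, 8.8 and 8.7 on Plk3-KO arrays, and 8.8, 9.0 and 8.7 on WT arrays. By adulthood it stood at 8.9, 9.0 and 9.0 on Plk3-KO arrays, and 9.4, 8.7 and 8.6 on WT arrays. All 6 groups overlapped. Adult minus P0 was −0.33 in Plk3-KO retinas (95% confidence interval −0.86 to 0.19) and −0.37 in WT retinas (−0.89 to 0.16).

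Nrarp, the feedback regulator, had the smallest standard error among the lead probe sets of the members. At P0 its lead probe set 1417985_at read 12.2, 12.2 and 12.3 on Plk3-KO arrays, and 11.9, 12.4 and 12.4 on WT arrays. At P7 it read 10.3, 10.2 and 10 on Plk3-KO arrays, and 10, 10.2 and 10.4 on WT arrays. In the adult it read 8.7, 8.8 and 8.7 on Plk3-KO arrays, and 9.3, 9.2 and 9.1 on WT arrays. The ages did not overlap, and in the adult the genotypes did not either. Nrarp fell by 2.07 from P0 to P7 in Plk3-KO retinas (4.19-fold, SE 0.162, limma adjusted p = 2.72e-07) and by 2.03 in WT retinas (4.09-fold, adjusted p = 3.26e-07). From P7 to the adult it fell by 1.43 in Plk3-KO retinas (2.70-fold, adjusted p = 2.13e-05) and by 1.00 in WT retinas (2-fold, adjusted p = 0.00056). Its other probe set 1417986_at was called lower at each of these steps as well, by 1.20 to 1.93.

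**Figure D4:**
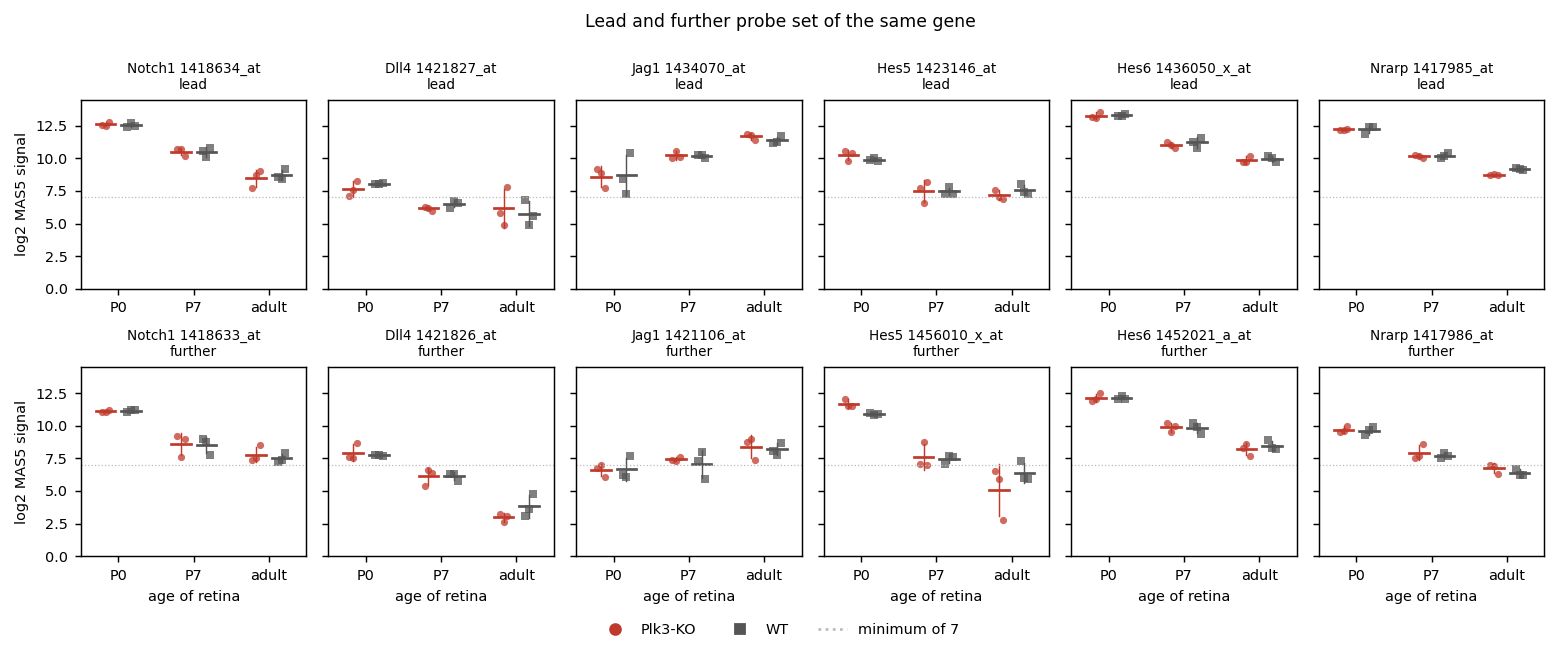
Log2 MAS5 signal (vertical axis) by age (horizontal axis) of the lead probe set (top) and a further probe set (bottom) of 6 members, with Plk3-KO as red circles left of WT as grey squares, means as lines, SD of 3 arrays as bars and the minimum of 7 dotted. In each of these 6 genes the further probe set drawn runs in the same direction as the lead from P0 to the adult, and adult Dll4 and Hes5 reach far below 7 on it. The Notch2 and Jag1 probe sets that lay under 7 are not drawn.

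Between the genotypes no member was called by limma at any age. At P0 0 of 10 members were called, with 0% of the 22611 probe sets tested, and differences ran from −0.37 for Dll4 to 0.37 for Hes1 and Hes5. At P7 0 of 9 were called, with 0% of 21390 probe sets, and differences ran from −0.27 for Notch2 to 0.13 for Hes1. In the adult 0 of 9 were called, with 0% of 21005 probe sets, and differences ran from −0.47 for Nrarp to 0.30 for Jag1. The Plk3 probe set was not called either, though the paper found the 3′ end of Plk3 raised in the knockout by qPCR. It read 7.4, 8.0 and 7.7 on adult Plk3-KO arrays, and 5.9, 3.9 and 5.8 on adult WT arrays. Having 0 calls therefore does not show that the genotypes were alike. At an unadjusted p under 0.05 the counts were 0, 0 and 1 member at P0, P7 and in the adult, beside 85, 123 and 1008 probe sets overall. The mean difference over the ages was called for 0 of 10 members and 0% of 25085 probe sets, with 0 members and 396 probe sets at an unadjusted p under 0.05, and it lay between −0.17 and 0.08. In the adult 1.84% of all probe sets, though 0 members, were called without the 4 arrays that stood apart, and 0.5%, again with 0 members, without adult WT array 3 alone. The methods' t-test called 0 members and 0% of all probe sets after adjustment at each age. At an unadjusted p under 0.05 it called 1 member, adult Nrarp, beside 2.22% of all probe sets at P0, 1.17% at P7 and 3.14% in the adult. With arrays weighted by their own spread, a fit whose weights did not converge, adult Hes1 was called lower in Plk3-KO retinas (−0.77, adjusted p = 0.0252), beside 6.91% of all probe sets called in that fit. A gene-by-gene estimate of the weights, tried after that, called no member between genotypes, and 1.15% of all adult probe sets.

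The intervals say how much could have been missed, given a spread shared by all 6 groups and not that of the age compared alone. At an unadjusted p under 0.05, limma counted 85 of 22611 probe sets at P0 and 123 of 21390 at P7. Both lie under the share that the threshold alone would give, so having 0 calls at these ages is weak evidence of no difference. The adult count, 1008 of 21005, lies just under that share too. So do 396 of 25085 for the mean over the ages, and 110 of 23878 and 288 of 23011 for the differences of steps. Having 0 calls in these comparisons is no firmer evidence. Nrarp was measured most closely, with a 95% confidence interval 0.68 wide at P0, and Dll4 least closely, at 2.57. Over the members the intervals at P0 reached down to −1.65 and up to 1.12, those at P7 from −1.11 to 1.18 and those in the adult from −1.16 to 1.45. An exact permutation test within an age cannot go below p = 0.1 with 3 arrays against 3, and over the members it gave p = 0.3 to 1 at P0 and P7 and p = 0.1 to 1 in the adult (two-sided). Stratified over the ages, the exact permutation p was 0.114 or higher.

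**Figure D5:**
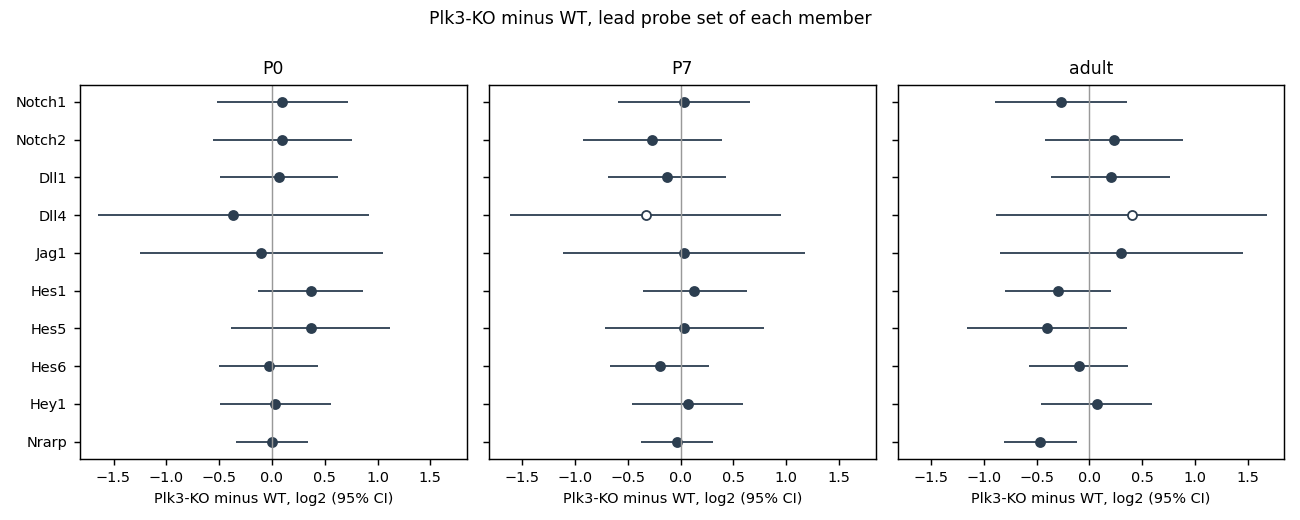
Plk3-KO minus WT difference in log2 units (horizontal axis) of the lead probe set of each member at P0, P7 and in the adult, with 95% confidence intervals of the limma fit. Filled points were tested and open points, Dll4 at P7 and in the adult, were under the minimum of 7. The interval of adult Nrarp, at −0.47, lies wholly below 0, and every other interval drawn for a tested member includes 0.

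Among lead probe sets tested, adult Nrarp was the 1 whose genotypes did not overlap. Its mean was 8.73 ± 0.06 in adult Plk3-KO retinas and 9.20 ± 0.10 in adult WT retinas (SD, n = 3 each), a difference of −0.47 (95% confidence interval −0.81 to −0.12). The limma p was 0.0107 unadjusted and 0.977 adjusted, and the exact permutation p was 0.1. Groups failed to overlap in 5.48% of all adult probe sets tested, in 3.49% at P0 and in 1.92% at P7, and among the members in 1 of 9 in the adult, 0 of 10 at P0 and 0 of 9 at P7. Its other probe set 1417986_at went the other way, at 7.0, 6.9 and 6.3 on adult Plk3-KO arrays and 6.7, 6.2 and 6.2 on adult WT arrays, with both means under the minimum. The Müller glia list averaged 12.28 to 12.44 on adult Plk3-KO arrays and 12.35 to 12.72 on adult WT arrays, and 8 of its 10 genes were lower in Plk3-KO retinas, none of them called. Its part in the Nrarp difference was not tested.

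Hes5 lies on chromosome 4, as Plk3 does, but it starts at 155 megabases and Plk3 at 117.1, and a link of position to signal was not tested. The Hes5 probe sets differed in how far the genotypes separated at P0. On 1456010_x_at it read 12.1, 11.5 and 11.5 on P0 Plk3-KO arrays, and 11, 10.8 and 10.9 on P0 WT arrays, without overlap. The difference was 0.80 (95% confidence interval −0.71 to 2.31, limma adjusted p = 1, exact permutation p = 0.1, the lowest it can reach). The limma interval uses a spread shared by all 6 groups, not that of the P0 arrays alone. On this probe set the SD was 0.35 in P0 Plk3-KO, 0.10 in P0 WT and 1.99 in adult Plk3-KO retinas. On the lead probe set it was 0.37 (−0.39 to 1.12) and the groups overlapped, so the separation was not shared by both probe sets.

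Whether the age steps differed between the genotypes was tested directly. From P0 to P7 the difference of steps was called for 0 of 10 members and 0% of 23878 probe sets, with 0 members and 110 probe sets at an unadjusted p under 0.05. From P7 to the adult it was called for 0 of 9 members and 0% of 23011 probe sets, with 0 members and 288 probe sets at an unadjusted p under 0.05. Nrarp from P7 to the adult came closest among the members, with a Plk3-KO step minus WT step of −0.43 (95% confidence interval −0.92 to 0.05, limma adjusted p = 1). The counts of members called in the genotypes at each step are therefore not shown to differ.

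The rest of the pathway was read from a list of 51 genes, of which 47 were analysed here. From P0 to P7, 15 of the 41 tested genes fell and 3 rose in Plk3-KO retinas, and 13 of 41 fell and 2 rose in WT retinas, with 14 called in both. The median difference was −0.43 in Plk3-KO and −0.40 in WT retinas, against −0.10 over all probe sets. Over all probe sets, 10.5% were called lower in Plk3-KO and 9.6% in WT retinas.

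Of the 6 further targets tested, 5 fell in both genotypes from P0 to P7, namely Hey2, Heyl, Id1, Id2 and Sox9. Heyl, a Hes-related repressor, fell by 2.70 in Plk3-KO retinas (limma adjusted p = 7.81e-05) and by 2.60 in WT retinas (adjusted p = 0.00012). Sox9, a factor of progenitors and Müller glia, fell by 2.33 in Plk3-KO and by 2.17 in WT retinas. Dll3, a Delta-like protein that acts inside the cell, fell by 2.47 in Plk3-KO retinas (adjusted p = 1e-04) and by 2.17 in WT retinas (adjusted p = 0.000351), as Dll1 did. Rbpj, the DNA-binding partner of all receptors, fell by 0.97 in Plk3-KO and by 0.63 in WT retinas. Lfng, a sugar transferase that tunes ligand choice, fell by 1.30 in Plk3-KO and by 1.40 in WT retinas, and Ncstn, a γ-secretase subunit, by 1.07 in Plk3-KO and by 0.97 in WT retinas. Of the turnover factors, Fbxw7, which marks the intracellular part for destruction, fell by 0.97 in Plk3-KO and by 0.87 in WT retinas, and the Deltex genes Dtx2 and Dtx4 fell as well. Neurl1a, a Neuralized ubiquitin ligase, rose by 1.33 in both genotypes, and Cntn1, a neuronal contactin reported to bind Notch, rose by 1.10 in Plk3-KO and by 1.07 in WT retinas.

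From P7 to the adult, 9 of 40 pathway genes fell and 2 rose in Plk3-KO retinas, and 8 of 40 fell and 2 rose in WT retinas, with 7 called in both. Over all probe sets, 10% were called lower and 9.16% higher in Plk3-KO retinas, and 9.75% lower and 9.95% higher in WT retinas. Id1 led, with a fall of 2.13 in Plk3-KO retinas (limma adjusted p = 0.000105) and of 1.93 in WT retinas (adjusted p = 0.000269). Dll3 fell by a further 1.57 in Plk3-KO and 1.37 in WT retinas, Dtx4 by 1.47 in Plk3-KO and 1.30 in WT retinas, and Rbpj by 0.63 in Plk3-KO and 1.00 in WT retinas. The genes that rose in both were Pofut1 and Poglut1, the enzymes that add the first fucose and glucose to the receptors, by 0.73 and 0.50 in Plk3-KO retinas and by 0.63 and 0.53 in WT retinas. Over the whole span from P0 to the adult, 21 of 41 pathway genes fell and 6 rose in Plk3-KO retinas, and 22 of 41 fell and 8 rose in WT retinas, shares to be read against the 25.2% and 26.9% of all probe sets called lower. No pathway gene was called between genotypes by limma, as over all probe sets.

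The genes whose 6 group means ran most like those of each member, after centring, were looked up among 12108 genes, with the root mean square difference in log2 units as the measure. For Notch1 these were Fat1 (0.101) and Ctse (0.12), and for Notch2 Tesk2 (0.0356) and Lgr4 (0.087). For Dll1 they were G2e3 (0.0882) and Sinhcaf (0.0896), for Dll4 Zranb3 (0.107) and Cenpj (0.114), and for Jag1 Aldoa (0.0533) and Impdh1 (0.0848). Hes1 lay nearest to Sema4d (0.0831) and Rcc1 (0.111), Hes5 to Etv5 (0.0898) and Prim1 (0.108), and Hes6 to Mical1 (0.065) and Carhsp1 (0.0711). Hey1 lay nearest to Nubp1 (0.0248) and Ccnjl (0.0314), and Nrarp to Cep192 (0.0621) and Zfp36l1 (0.11). None of the genes nearest to a member was another member. The distances of Hey1 and Notch2, whose own means spanned the least, were the smallest together with that of Jag1.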

How the data were processed

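Retinal RNA of Plk3-KO and WT mice was hybridised to 18 arrays, 3 for each of 6 groups. The authors read them with the affy package of Bioconductor, applied MAS5 background adjustment and scaling, and deposited log2 values rounded to 1 decimal. The package version and an array build are not given in the sources used here. E16.5 arrays of the study are not analysed here. The 64 Affymetrix control probe sets were left out of the 45101. The members and lists were chosen with earlier results of these data known. Named genes are the members with all their probe sets, pathway genes that limma called, and the 2 genes nearest to each member by root mean square difference of centred group means.

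Values were fitted with limma 3.58.1 in R 4.3.3 (1 mean per age and genotype, eBayes with trend, no replicate block, 12 residual and 4.07 prior degrees of freedom) on the 25085 probe sets with a mean above 7 in any group. Adjustment ran within each comparison over probe sets above 7 in a group compared, with a threshold of 0.05. The script was tested on simulated data. Exact permutation tests covered single members. Alternatives were no filter, a floor at 7, quantile normalization, median centring, eBayes without trend, array weights, only the groups compared, further probe sets, leaving out arrays, a replicate block and the methods' two-tailed t-test. Added after values were seen were the adult minus P0 comparisons, the lens covariate, gene-by-gene array weights and the alternatives for the counts of differing age steps, a test that itself was planned.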

Additional observations from a re-analysis of the deposited data

How the results depend on the processing

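The age falls of Notch1, Dll1, Hes1, Hes5, Hes6 and Nrarp from P0 to P7 lost their call under no alternative, and of 34 member differences that changed sign under some alternative 0 were called as reported. Calls lost elsewhere were those of Jag1 from P0 to P7 in Plk3-KO retinas (12 settings), Dll1 from P7 to adult in WT (9), Notch2 from P0 to P7 in Plk3-KO (7), Notch1 from P7 to adult (2 in each genotype), Hes6 from P7 to adult (1 in each) and Jag1 from P0 to adult in WT (1). In all, 35 age calls were lost and 61 gained over 1194 alternatives. Values rest on 3 arrays a group, and signals under 7 are close to background. Rescaling moved the median of all probe sets by at most 0.17, with −0.10 as deposited, −0.03 after quantile normalization and 0.07 after median centring in WT from P0 to P7. The cause was not tested for any of the following changes.

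The count of members called from P0 to P7 in WT was 10 with array weights and 10 with gene-by-gene weights, against 6, while the share of all probe sets called was 44.4% and 42.9%, against 20.4%. From P7 to the adult in Plk3-KO retinas it was 7 with array weights, 5 with gene-by-gene weights and 1 with the methods' t-test after adjustment, against 3, while of 22271 probe sets 9965, 7656 and 591 were called, against 4269. In WT from P7 to the adult the adjusted t-test gave 1, against 4, and 3.09% of all probe sets, against 19.7%. Adult Plk3-KO minus WT gave 1 with array weights and 1 with the unadjusted t-test, against 0, and 6.91% and 3.14% of all probe sets, against 0%. Leaving out each array in turn gave 6 to 7 members from P0 to P7 in Plk3-KO and 6 to 7 in WT retinas, 3 to 4 from P7 to the adult in each, 7 to 9 from P0 to the adult in Plk3-KO and 8 to 8 in WT retinas, and 0 to 0 for every genotype comparison. With the replicate number as a block the counts of members called were 7, 6, 3 and 4 for P7 minus P0 in Plk3-KO and WT and adult minus P7 in Plk3-KO and WT, and the block ended the call of Jag1 in the first (adjusted p = 0.0604) and changed no other call. Same-numbered arrays correlated at −0.61 to 0.544 in their deviations. Not every array did so best with its own number, so the numbers were not taken to pair arrays. At P7, Plk3-KO array 2 correlated at 0.604 with WT array 3, and Plk3-KO array 3 at 0.626 with WT array 2. With the WT array of their own number they gave −0.485 and −0.61, while the arrays numbered 1 gave 0.379. The block by number therefore cannot test a pairing across numbers. Such a pairing was not tested, and the genotype comparisons take no account of it.

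Signs changed as follows for members that were not called. With array weights, adult minus P7 was −0.04 for Hey1 in Plk3-KO, and −0.07 for Notch2 and 0.00 for Hey1 in WT. Plk3-KO minus WT was then −0.03 for Dll1, 0.58 for Jag1 and −0.08 for Hey1 at P0, −0.22 for Jag1 and 0.16 for Nrarp at P7, 0.09 for Notch1 in the adult, and 0.05 for Notch1, −0.08 for Dll1 and −0.18 for Hes1 over the ages. With gene-by-gene weights, adult minus P7 was −0.04 for Hey1 in Plk3-KO, and −0.06 for Notch2 and −0.02 for Hey1 in WT. Plk3-KO minus WT was −0.04 for Dll1, 0.62 for Jag1 and −0.10 for Hey1 at P0, −0.21 for Jag1 and 0.14 for Nrarp at P7, and −0.02 for Notch2, −0.07 for Dll1 and −0.12 for Hes1 over the ages. On further probe sets, Plk3-KO minus WT was −0.03 for Notch1 and 0.17 for Dll4 at P0, 0.23 for Nrarp and 0.07 for Hes6 at P7, 0.30 for Notch1 in the adult, and 0.11 for Notch1 and 0.22 for Nrarp over the ages, and adult minus P7 in WT was −1.07 for Hes5. With the mean of a gene's probe sets, adult minus P7 in WT was −0.48 for Hes5, and Plk3-KO minus WT was 0.10 for Nrarp at P7, 0.02 for Notch1 in the adult, and 0.03 for Notch1 and 0.03 for Nrarp over the ages. Without the 4 arrays that stood apart, adult minus P7 was −0.10 for Notch2 in Plk3-KO and −0.05 in WT, and Plk3-KO minus WT was −0.25 for Jag1 and 0.05 for Nrarp at P7, −0.05 for Notch2 and −0.10 for Hey1 in the adult, and −0.03 for Hes1 and −0.01 for Hey1 over the ages. With the lens covariate, Jag1 was −0.10 for adult minus P7 in WT and −0.06 for Plk3-KO minus WT at P7, and Hey1 was −0.03 for Plk3-KO minus WT in the adult.

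Leaving out 1 array at a time changed a sign in these ranges. Adult minus P7 ran from −0.78 to 0.02 for Hes5, −0.03 to 0.22 for Hey1 and −0.22 to 0.18 for Hes1 in Plk3-KO, and from −0.12 to 0.18 for Notch2, −0.12 to 0.27 for Hes5 and −0.18 to 0.22 for Hey1 in WT. Plk3-KO minus WT at P0 ran from −0.18 to 0.07 for Hes6, −0.08 to 0.17 for Dll1, −0.80 to 0.75 for Jag1 and −0.17 to 0.23 for Hey1. At P7 it ran from −0.17 to 0.20 for Notch1, −0.32 to 0.48 for Hes5, −0.08 to 0.17 for Hey1, −0.15 to 0.15 for Jag1, −0.47 to 0.03 for Dll1 and −0.13 to 0.07 for Nrarp. In the adult it ran from −0.53 to 0.12 for Notch1, −0.20 to 0.60 for Notch2, −0.02 to 0.33 for Dll1, −0.27 to 0.02 for Hes6 and −0.08 to 0.32 for Hey1. Over the ages it ran from −0.16 to 0.36 for Jag1, −0.07 to 0.10 for Dll1, −0.01 to 0.15 for Hes1, −0.01 to 0.14 for Hey1, −0.12 to 0.14 for Notch2, −0.13 to 0.08 for Notch1 and −0.37 to 0.11 for Dll4.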
